A study of Mus musculus with 16 samples.

Results

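Whole brown adipose tissue (BAT) in which the glycolytic gene Pgam1 was deleted from adipocytes was compared with BAT of littermates that kept the gene. Of the 16 arrays of the series, the 8 taken from interscapular BAT were used, 4 from Adipo-Pgam1 KO mice and 4 from controls, chosen by their titles. All animals were male C57BL/6NCrSlc mice kept at 23 °C on normal chow. The KO mice carried Adipoq-Cre and 2 floxed Pgam1 alleles, and the controls carried the floxed alleles without Cre. The mice were 16 weeks old, except the animal of KO array 4, which was 14 weeks old. Adipoq-Cre acts in adipocytes of brown and white fat alike, so the other cells of the tissue kept Pgam1, the deletion was not limited to BAT, and the controls do not account for Cre itself. The RNA came from whole tissue, in which fewer cells of a type and less RNA per cell cannot be told apart. A level below is the log2 of a probe's signal divided by the 75th percentile of that array, so that 0 is the level of the 75th percentile. A change is the KO mean minus the control mean on this log2 scale, given with its standard error (SE), and levels of different genes were not set against each other.

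Pgam1 encodes phosphoglycerate mutase, which converts 3-phosphoglycerate to 2-phosphoglycerate in glycolysis and so stands just below the branch from which serine is made. Brown adipocytes hold many small lipid droplets and many mitochondria, and they make heat through the uncoupling protein Ucp1. The tissue also holds capillaries, nerve endings, fibroblast progenitors and resident macrophages, and it releases hormones and growth factors. Stressed mitochondria or shortage of amino acids can switch on the transcription factor Atf4 through phosphorylation of the translation factor eIF2alpha, a program called the integrated stress response.

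The targeted transcript was first compared across the arrays. Pgam1 was at 7.94, 7.93, 8.07 and 7.82 in controls and 6.2, 6.12, 6.03 and 6.43 in KO BAT. The controls and KO arrays did not overlap, and the KO level was 29.9% of the control level (log2 change -1.74, SE 0.11, adjusted p = 1.1e-05). A second Pgam1 probe gave 31.8% of the control level, and the smallest two-sided p that an exact permutation of 4 against 4 arrays can give, 0.0286, was reached by both probes. Bpgm, which makes 2,3-bisphosphoglycerate and is abundant in red cells, was at 2.49, 2.27, 1.92 and 1.72 in controls and 1.09, 0.79, 1.02 and 0.89 in KO BAT (log2 change -1.15, SE 0.17, adjusted p = 0.000494). Pgam2, the muscle mutase, was at -3.63, -3.78, -2.84 and -4.01 in controls and 1.7, -3.39, -0.43 and -2.71 in KO BAT, above background on 3 of the 4 controls, and did not pass the test (log2 change 2.36, SE 0.99, adjusted p = 0.0671). Its signal was high in KO arrays 1 and 3 only, the pattern described for muscle transcripts below. Markers of the labelled depot were checked as well. Zic1, a transcription factor of brown fat, lay between 0.9 and 1.87 in the 8 BAT arrays and was well above background on 0 of the 8 gonadal fat arrays of the series. The mesothelial gene Wt1 was well above background on 0 of the 8 BAT arrays and lay between 0.82 and 2.15 in gonadal fat. Other genes of this check separated the depots less cleanly. Msln, also mesothelial, was well above background on 3 KO BAT arrays and no BAT control. It lay between -5.52 and -2.75 in KO BAT, against 2.52 to 4.17 in gonadal fat. Upk3b and Hoxc9 were well above background on 1 KO BAT array each, and Lhx8, Ebf2 and Hoxa9 on every array of both depots.

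Of 14288 genes whose signal clearly exceeded background on each of the 4 arrays of one genotype or both, 8770 (61.4%) passed an adjusted p of 0.05 in limma, 3914 (27.4%) higher and 4856 (34%) lower in KO BAT. The levels of controls and KO arrays did not overlap for 57% of the genes. The median change over all genes was -0.083, the median SE 0.15, and 2068 genes rose and 1698 fell at least 2-fold. A list of genes is therefore read against 27.4% higher and 34% lower, and a share near these is the background. Scaling set how the calls were divided. With the spike-in RNAs as the scale, 79.7% of the called genes were higher and the median of all genes was 0.461, and with Actb and Rplp0 as the scale 17.6% were higher and the median was -0.674, against 44.6% with the 75th percentile. All changes below are therefore changes relative to the rest of the transcripts on the array. Of the 14288 genes, 7249 were higher and 1851 lower with spike-in scaling, and 1911 higher and 8921 lower with Actb and Rplp0 scaling. Counts, medians and gene changes under these scales are read against these values of all genes. Such a scale shifts all genes of an array alike. Less the median of all genes, the 42 list medians are therefore the same under both scales by construction, which is no test of the lists. Before scaling, the 75th percentile itself was 401.3 to 451.3 in controls and 650.2 to 916.2 in KO BAT, and the spike-in RNAs averaged 13.65 to 13.79 and 14.07 to 14.17 on the log2 scale.

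Arrays stood apart within both genotypes. Controls 1 to 3 were on one slide, and control 4 was on a second slide with all 4 KO arrays. Slide as a block made 6682 calls in place of 8770, and that fit rests on control 4 as the 1 control beside the KO arrays. KO arrays 1 and 3 held skeletal muscle transcripts. Of 36 muscle genes with a probe, 23 were higher in these 2 arrays than in the 6 others, and 9 were well above background there and on no other array. Over the 14288 genes tested the count higher in these 2 arrays was 924 (6.47%). That set leaves out genes above background on KO arrays 1 and 3 only and holds 20 of the 36 muscle genes, so the 2 shares are of unlike sets. Myh4, the myosin heavy chain of fast muscle fibres (chosen, as were Ckm and Pvalb, after its values were seen), was at -6.13, -5.97, -5.1 and -5.93 in controls and 5.02, -5.84, 2.8 and -4.94 in KO BAT, above background on 0 of the 4 controls and 2 of the 4 KO arrays. Ckm, the creatine kinase of muscle, was at -5.81, -5.92, -6.03 and -6.51 in controls and 1.19, -5.72, -1.76 and -6.2 in KO BAT, above background on 0 of the 4 controls and 2 of the 4 KO arrays, and the calcium buffer Pvalb was at -2.94, -2.36, -2.37 and -1.91 in controls and 3.63, -2.73, 1.24 and -2.55 in KO BAT. Acta1, skeletal actin, was at -3.66, -0.65, -0.89 and -3.01 in controls and 3.76, -0.83, 1.23 and 0.07 in KO BAT, so that KO array 1 was highest and KO array 3 second. The summed signal of the 36 muscle genes was 57.6 to 65.6 times the 75th percentile in controls and 43.8 to 269 times in KO BAT. In the muscle list 7 of 20 tested members were higher (35%) and 2 lower (10%), with a median change of 1.28, and without KO arrays 1 and 3 the median change was -0.06. Of the 13 regulators of muscle cell fate and denervation, from Myod1 to the embryonic myosins, 2 could be tested, and Mef2c was higher (log2 change 0.62, SE 0.23, adjusted p = 0.0406), a call lost without any one of 6 of the 8 arrays. The summed signal of all 13 was 1.1 to 1.78 times the 75th percentile in controls. In KO arrays 1 to 4 it was 43.7, 1.93, 10.3 and 1.37 times, so KO arrays 1 and 3 were highest for these genes too. Control 3 was the highest control for 14 of 14 resident macrophage genes and 23 of 26 proliferation genes, against 35.3% of all genes.

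**Figure D1:**
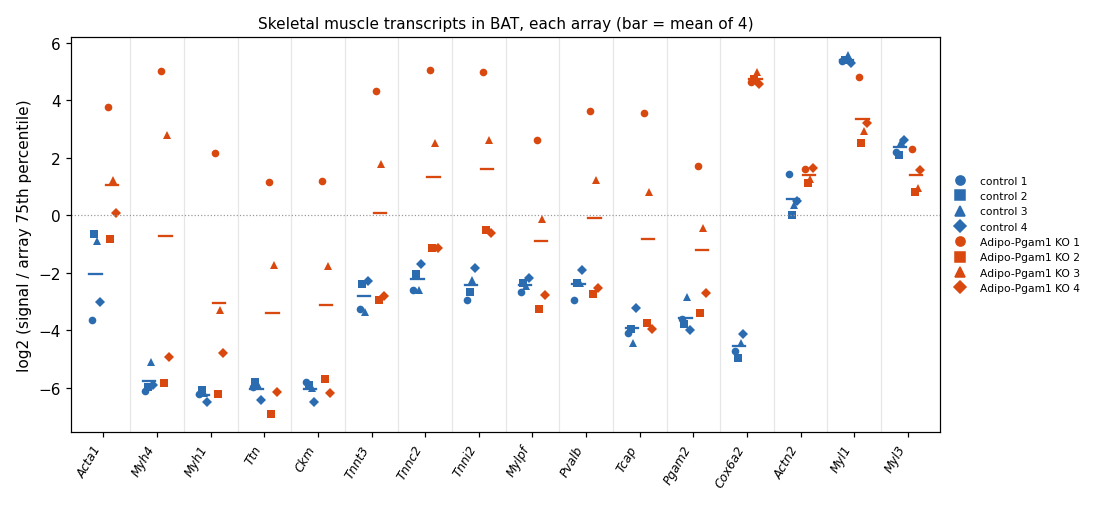
Levels of 16 skeletal muscle genes (x axis) in each BAT array, as log2 of the signal over the array's 75th percentile (y axis), with controls in blue, Adipo-Pgam1 KO arrays in orange and a bar at the mean of each 4. KO array 1 was highest and KO array 3 second for genes such as Myh4, Tnnt3 and Pvalb, whereas Cox6a2 lay between 4.56 and 5 in all 4 KO arrays and Myl1 was lower in all 4.

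Many genes of the muscle list were well above background on KO arrays 2 and 4 too, 23 and 19 of the 36, against 16 to 23 on the controls. Cox6a2, the heart and muscle form of a cytochrome c oxidase subunit that brown fat can also express, was at -4.74, -4.98, -4.44 and -4.12 in controls and 4.64, 4.73, 5 and 4.56 in KO BAT, above background on 1 of the 4 controls. All 4 KO arrays lay within less than 1 log2 unit of each other and far above every control, KO arrays 2 and 4 included (log2 change 9.31, SE 0.19, adjusted p = 1.21e-07). Ryr1, the calcium release channel of the sarcoplasmic reticulum, was highest on KO arrays 1 and 3 but well above background on all 4 KO arrays and no control, at least 2.78-fold higher in KO BAT (adjusted p = 0.00267). Myl1, a myosin light chain, went the other way, at 5.36, 5.39, 5.59 and 5.3 in controls and 4.82, 2.5, 2.93 and 3.21 in KO BAT (log2 change -2.04, SE 0.43, adjusted p = 0.00327).

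**Figure D2:**
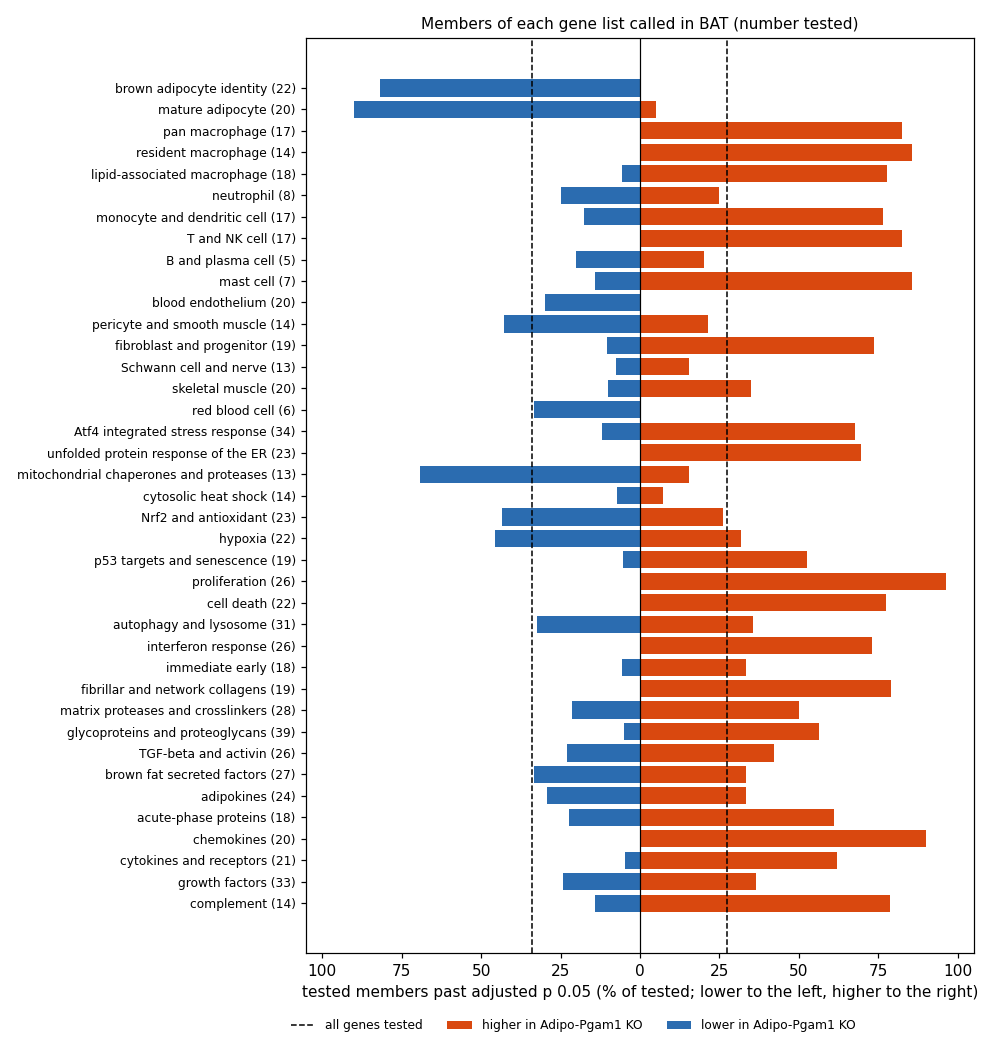
Share of the tested members of each gene list (y axis, number tested in brackets) that passed the adjusted p of 0.05, higher in KO BAT to the right in orange and lower to the left in blue (x axis, % of tested members). The dashed lines mark all genes tested, 27.4% higher and 34% lower, and proliferation (96.2%) and chemokines (90%) reach farthest to the right and the mature adipocyte list (90%) farthest to the left.

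Genes of the adipocyte itself were lower in KO BAT. Of the brown adipocyte identity list, 0 of 22 tested members were higher (0%) and 18 lower (81.8%), with a median change of -1.19, and of the mature adipocyte list, 1 of 20 tested members was higher (5%) and 18 lower (90%), with a median change of -1.11. With spike-in scaling 11 of the 22 brown identity genes were lower, against 1851 of all 14288 genes, and the median stayed below 0. Ucp1 was at 10, 10, 9.83 and 9.72 in controls and 8.26, 8.69, 8.46 and 9.08 in KO BAT. The KO arrays were all below the controls but remained far above the 75th percentile (log2 change -1.27, SE 0.17, adjusted p = 0.000307). With quantile normalization, which forces one distribution on all arrays, the change was -0.34 and did not pass the test. Adrb3, the beta3-adrenergic receptor, went from 5.73, 5.45, 5.78 and 5.27 in controls to 3, 3.75, 2.41 and 4.32 in KO BAT (log2 change -2.19, SE 0.37, adjusted p = 0.000976), and Dio2, which makes active thyroid hormone, from 4.6, 5.66, 4.62 and 3.96 in controls to 1.72, 2.73, 2.05 and 2.64 in KO BAT (log2 change -2.42, SE 0.36, adjusted p = 0.000497). Slc27a2, a very long chain acyl-CoA synthetase, fell most in the list, by 3.31 on the log2 scale, and Ppara, the receptor that drives fatty acid oxidation genes, fell by 2.14. Cpt1b, the gate for fatty acids into mitochondria, and the proton channel Otop1 fell by 1.7 and 1.82. Zic1, at 1.57, 1.59, 1.33 and 1.87 in controls and 0.9, 1.41, 1.41 and 1.33 in KO BAT, did not pass the test (log2 change -0.33, SE 0.16, adjusted p = 0.101), and neither did the coactivator Ppargc1a, at 4.61, 4.43, 3.57 and 2.85 in controls and 4.39, 5.2, 3.39 and 5.01 in KO BAT (log2 change 0.63, SE 0.49, adjusted p = 0.286). Ebf2, a transcription factor of brown precursors, fell by 0.48, although its change was 0.06 with spike-in scaling.

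Of the genes shared with white adipocytes, Adipoq was at 8.17, 8.35, 8.13 and 8.1 in controls and 6.52, 6.13, 5.68 and 6.4 in KO BAT (log2 change -2, SE 0.18, adjusted p = 3.57e-05). Plin1 and Fabp4, a lipid droplet coat protein and a fatty acid carrier, fell by 1.06 and 0.98 (Fabp4 0.04 with quantile normalization), and the lipase Lipe by 1.24. Cidec, which enlarges lipid droplets by fusing them, fell by 2.4. Cfd, the complement factor called adipsin, was at 8.01, 9.03, 7.1 and 8.57 in controls and 4.82, 4.51, 4.21 and 4.44 in KO BAT, the largest fall among the adipocyte markers (log2 change -3.68, SE 0.37, adjusted p = 6.2e-05). Lep, which is more strongly expressed in white than in brown fat, was at -0.83, -0.86, -0.94 and -0.26 in controls and -1.14, -1.29, -1.25 and -0.99 in KO BAT (log2 change -0.44, SE 0.16, adjusted p = 0.0394), and its change was 0.1 with spike-in scaling. The Lep call was lost without any one of control 1 and KO arrays 1, 2 and 3. Nnat, a small membrane protein, was the 1 member of the list that rose, at -1.13, -0.72, -2.74 and -1.45 in controls and 0.16, 0.33, -0.04 and 0.68 in KO BAT (log2 change 1.79, SE 0.39, adjusted p = 0.00391).

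Macrophage transcripts were higher. In the list of genes common to macrophages, 14 of 17 tested members were higher (82.4%) and 0 lower (0%), with a median change of 2.58, in the resident list 12 of 14 tested members were higher (85.7%) and 0 lower (0%), with a median change of 2.36, and in the lipid-associated list 14 of 18 tested members were higher (77.8%) and 1 lower (5.56%), with a median change of 2.42. Adgre1, the surface protein F4/80, was at 0.5, 0.31, 1.06 and 0.14 in controls and 3.04, 3.74, 3.63 and 2.98 in KO BAT. Control 3 was the highest control and still lay below each KO array (log2 change 2.84, SE 0.25, adjusted p = 3.15e-05). Cd68, an endosomal glycoprotein, rose by 3.07 and Fcgr1, the high-affinity receptor for IgG, by 3.79. Csf1r, the receptor of the macrophage growth factor Csf1, rose by 1.92, and Csf1 itself was at 1.65, 0.71, 0.09 and -0.46 in controls and 3.5, 3.05, 3.28 and 3.43 in KO BAT (log2 change 2.82, SE 0.4, adjusted p = 0.00034). Mertk and Itgam did not pass the test, with changes of 0.36 and 0.14. The Itgam probes disagreed, and their mean changed by -0.64. Summed over the 17 common genes, the signal was 38.9 to 54.2 times the 75th percentile in controls and 137 to 204 times in KO BAT. These sums rose in the same arrays as the lists that follow, and their part in those results was not tested.

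Among genes of resident macrophages, the mannose receptor Mrc1 was at 0.49, 0.57, 1.08 and 0.52 in controls and 3.88, 3.7, 4.3 and 3.37 in KO BAT (log2 change 3.15, SE 0.21, adjusted p = 1.23e-05). Controls and KO arrays did not overlap, with control 3 again highest among controls. Folr2, a folate receptor, rose by 3.07, the hyaluronan receptor Lyve1 by 2.26, and the 3 chains of complement C1q, C1qa, C1qb and C1qc, by 2.47, 2.58 and 2.76. Cd163, the haemoglobin scavenger receptor, was at -0.63, -0.27, 0.7 and 0.53 in controls and 2.34, 0.62, 1.83 and 0.08 in KO BAT, and the groups overlapped (log2 change 1.14, SE 0.52, adjusted p = 0.0853). KO array 3 was the highest KO array for 12 of the 14 resident genes and KO array 4 the lowest for 13.

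The lipid-associated genes are those that macrophages switch on while they take up lipid from dying adipocytes. Trem2, the lipid-sensing receptor of these cells, was at -1.97, -1.35, 0.64 and -1.21 in controls and 2.59, 3.83, 3.39 and 2.85 in KO BAT (log2 change 4.14, SE 0.53, adjusted p = 0.000202). Gpnmb, a glycoprotein of phagocytic lysosomes, was at -3.17, -2.23, -1.45 and -2.68 in controls and 1.71, 2.6, 2.76 and 2.71 in KO BAT, and the carbohydrate-binding Lgals3 was at 2.21, 1.79, 3.73 and 1.76 in controls and 6.98, 7.56, 7.69 and 7.46 in KO BAT. For both, every KO array lay more than 3 log2 units above the highest control. Spp1, or osteopontin, was at -5.88, -5.73, -3.32 and -6.42 in controls and -0.84, 2.14, 1.75 and 0.14 in KO BAT, above background on 1 of the 4 controls (log2 change 6.13, SE 0.82, adjusted p = 0.000265). Mmp12, the macrophage elastase, and Atp6v0d2, a proton pump subunit, were above background on only some controls and rose by 5 and 4.65. Some lysosomal and lipid handling genes of the same list were not higher. Apoe and Ctsd changed by -0.21 and -0.2 without passing the test, and Ctsb, a cathepsin, was lower (log2 change -0.68, SE 0.1, adjusted p = 0.000368).

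**Figure D3:**
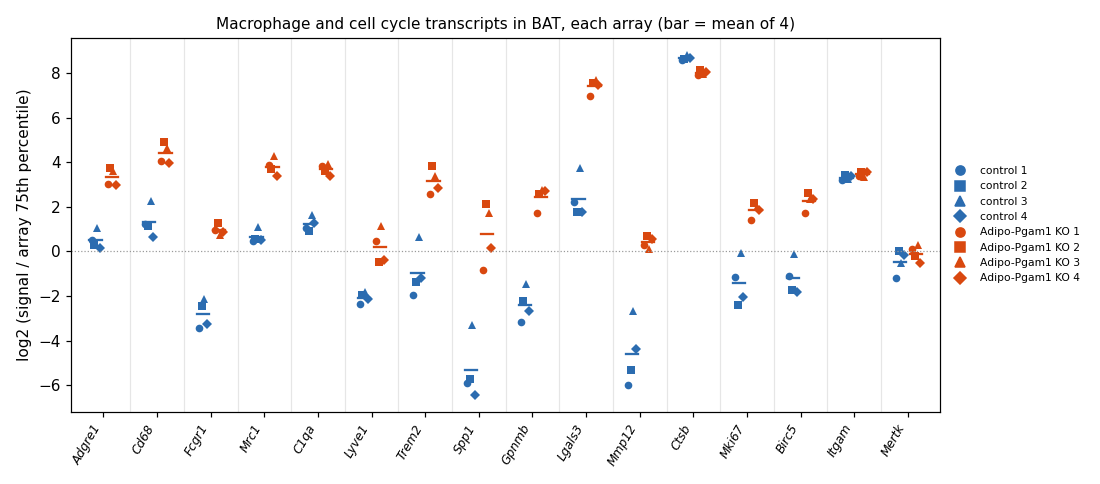
Levels of 14 macrophage genes and 2 cell cycle genes, Mki67 and Birc5 (x axis), in each BAT array, as log2 of the signal over the array's 75th percentile (y axis), with controls in blue, Adipo-Pgam1 KO arrays in orange and bars at the means. Trem2, Spp1, Gpnmb and Lgals3 were higher in every KO array than in any control, control 3 (triangle) was the highest control for most of the 14 genes, and Itgam and Mertk overlapped.

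Other leukocyte lists were mixed. Of the monocyte and dendritic cell genes, 13 of 17 tested members were higher (76.5%) and 3 lower (17.6%), with a median change of 2. Plac8, expressed in classical monocytes, was at -2.46, -2.01, -3.56 and -1.89 in controls and 0.89, 1.07, 1.48 and 1.35 in KO BAT (log2 change 3.68, SE 0.35, adjusted p = 4.41e-05), and the chemokine receptor Ccr2 rose by 2.83. Ly6c2, whose probe may share signal with its close copy Ly6c1 of endothelium, was at 6.17, 6.41, 6.52 and 6.6 in controls and 6.3, 6, 6.18 and 6.3 in KO BAT (log2 change -0.23, SE 0.12, adjusted p = 0.137). Clec9a, the dead-cell receptor of type 1 dendritic cells, was well above background on no control, at least 8.17-fold higher in KO BAT (adjusted p = 7.64e-06), and Flt3, Cd209a and Irf8 rose by 2.43, 3.33 and 2.73. In the T and NK cell list, 14 of 17 tested members were higher (82.4%) and 0 lower (0%), with a median change of 1.68. The median was 1.55 where genes below background in all controls are set to their lower bound. The count higher was 8 with slide as a block and 7 with normexp background correction, against 3004 of 14278 and 3673 of 14288 genes in all. Control 4, the 1 control on the slide of the KO arrays, was the highest control for 13 of the 17 genes, against 26% of all genes. Cd3e did not change past the test (log2 change -0.01, SE 0.2, adjusted p = 0.98), whereas Cd3d and Cd3g rose by 1.35 and 1.78, so the 3 chains of one receptor complex gave different results. Il7r, the interleukin 7 receptor found on T cells and innate lymphoid cells, was at -4, -3.86, -2.77 and -3.43 in controls and 0.72, 1.3, 0.61 and 1.15 in KO BAT, above background on 2 of the 4 controls (log2 change 4.46, SE 0.28, adjusted p = 9.75e-06).

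Most mast cell genes rose, and neutrophil genes were divided. Of 7 tested mast cell genes, 6 were higher (85.7%) and 1 lower (14.3%). Cpa3, the carboxypeptidase of mast cell granules, was at -3.28, -2.9, -3.1 and -3.16 in controls and -0.33, 1.27, 1.57 and 0.88 in KO BAT, and the protease Mcpt4 was at 0.03, -0.43, -0.81 and -1.18 in controls and 1.69, 3.21, 3.3 and 2.84 in KO BAT. The KO arrays lay above the controls for both (log2 changes 3.96 and 3.36, SE 0.36 and 0.38, adjusted p = 3.94e-05 and 0.000115). Tpsb2, a tryptase, rose by 1.08. Of 8 tested neutrophil genes, 2 were higher (25%) and 2 lower (25%). S100a8, a calcium-binding protein of neutrophils, was at -0.36, -0.97, -4.01 and -2.85 in controls and -1.47, -0.66, -1.17 and -0.29 in KO BAT, above background on 3 of the 4 controls, with groups that overlapped (log2 change 1.15, SE 0.74, adjusted p = 0.205), and S100a9 was at 1.76, 1.02, -2.68 and -1.44 in controls and -0.01, 0.63, -0.14 and 1.19 in KO BAT (log2 change 0.75, SE 0.91, adjusted p = 0.497). The cathelicidin Camp and the receptor Csf3r fell by 0.9 and 0.57. Of 5 tested B and plasma cell genes, 1 was higher (20%) and 1 lower (20%), and Ms4a1 and Cd79a were not well above background on all arrays of either genotype.

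Most endothelial genes did not pass the test. In the blood endothelium list, 0 of 20 tested members were higher (0%) and 6 lower (30%), with a median change of -0.35. With spike-in scaling the median was 0.19, against 0.461 for all genes. Pecam1 and Cdh5, junction proteins of all endothelium, changed by -0.18 and 0.19 and did not pass the test. Gpihbp1, which holds lipoprotein lipase on the capillary wall, was at 5.66, 5.77, 5.83 and 5.7 in controls and 5.3, 4.43, 4.97 and 5.2 in KO BAT (log2 change -0.76, SE 0.18, adjusted p = 0.00629), and Cd300lg, a capillary mucin, fell by 1.05. Rgcc, a regulator of complement and cell cycle found in capillaries, fell most, from 7.64, 8.21, 8.2 and 8.55 in controls to 6.06, 6.01, 6.21 and 6.57 in KO BAT (log2 change -1.94, SE 0.2, adjusted p = 7.6e-05). Of 4 tested lymphatic genes, 1 was higher (25%) and 0 lower (0%), and the 1 that rose was Pdpn (log2 change 2.15, SE 0.38, adjusted p = 0.00126), which fibroblasts and macrophages also express. Of the pericyte and smooth muscle genes, 3 of 14 tested members were higher (21.4%) and 6 lower (42.9%), with a median change of -0.41 that became 0.13 under spike-in scaling. Rgs5, Kcnj8 and Mcam, found in pericytes, fell by 0.86, 0.82 and 1.28, whereas the smooth muscle actins Acta2 and Actg2 rose by 0.76 and 1.44. In the Schwann cell and nerve list, 2 of 13 tested members were higher (15.4%) and 1 lower (7.69%), with a median change of 0.18 that became -0.41 with Actb and Rplp0 scaling and -0.21 with normexp background correction. S100b was at 5.69, 5.26, 5.81 and 5.4 in controls and 4.74, 3.88, 3.7 and 4.31 in KO BAT (log2 change -1.39, SE 0.23, adjusted p = 0.000936). It is also expressed in brown adipocytes, and the glial regulator Sox10 changed by 0.18 (adjusted p = 0.247). Of 6 tested red cell genes, 0 were higher (0%) and 2 lower (33.3%), and Hba-a1, a haemoglobin chain, was at 10.04, 9.38, 8.02 and 8.75 in controls and 8.76, 8.69, 8.79 and 8.99 in KO BAT (log2 change -0.24, SE 0.37, adjusted p = 0.598).

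Fibroblast and progenitor genes were higher. 14 of 19 tested members were higher (73.7%) and 2 lower (10.5%), with a median change of 0.93. With Actb and Rplp0 scaling 4 were higher, against 1911 of all 14288 genes. Pdgfra, the receptor that marks adipocyte progenitors, was at -0.02, -0.01, 0.11 and -0.09 in controls and 1.29, 1.87, 1.45 and 1.74 in KO BAT (log2 change 1.59, SE 0.14, adjusted p = 3.25e-05). Its KO levels all exceeded the controls. The stem cell antigen Cd34 and the surface protein Thy1 rose by 1.21 and 1.14, and Mfap5, a microfibril protein of fascial fibroblasts, by 1.68. Dpp4 and Pi16 mark a more primitive progenitor. Dpp4 rose by 1.74, and Pi16 was at 2.79, 3.09, 2.8 and 2.81 in controls and 2.78, 3.11, 3.6 and 3.94 in KO BAT (log2 change 0.49, SE 0.24, adjusted p = 0.102).

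Most genes of the integrated stress response list rose. Of 34 tested members, 23 were higher (67.6%) and 4 lower (11.8%), with a median of 2.34, or 1.55 where genes below background in all controls are set to their lower bound. Atf4 was at 6.36, 6.24, 6.05 and 5.54 in controls and 7.59, 7.74, 7.61 and 7.81 in KO BAT (log2 change 1.64, SE 0.18, adjusted p = 8.18e-05). Atf3 was at 1.19, -1.54, -1.11 and -1.91 in controls and 2.71, 2.93, 2.32 and 3.33 in KO BAT, Atf5 at 6.92, 6.7, 6.9 and 6.95 in controls and 8.19, 8.31, 8.12 and 8.41 in KO BAT and Ddit3, the transcription factor Chop, at 1.41, 1.16, 1.64 and 1 in controls and 2.86, 3.56, 4.14 and 3.78 in KO BAT. All 4 of these transcription factors were higher in every KO array than in any control. Trib3, a pseudokinase that Chop and Atf4 induce, rose by 4.3, and Chac1, which degrades glutathione, rose by 3.85.

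The enzymes of serine, glycine and mitochondrial one-carbon metabolism divided. Psat1, the second enzyme of serine synthesis from 3-phosphoglycerate, was at -1.15, -0.97, -1.55 and -1.15 in controls and 3.53, 3.78, 4.01 and 3.42 in KO BAT (log2 change 4.89, SE 0.17, adjusted p = 8.89e-07). Phgdh, the first enzyme, rose by 3.42, but Psph, the third and last, was at 2.89, 3.15, 3.25 and 3.13 in controls and 3.06, 3.09, 3.08 and 2.93 in KO BAT (log2 change -0.07, SE 0.1, adjusted p = 0.591). Mthfd2 was at -2.41, -2.54, -2.41 and -2.8 in controls and 1.72, 2.14, 2.33 and 1.53 in KO BAT (log2 change 4.47, SE 0.19, adjusted p = 1.91e-06). Aldh1l2, which oxidises formyl-tetrahydrofolate in mitochondria, was below background on all controls and at least 35.9-fold higher in KO BAT (adjusted p = 1.91e-06). Shmt2, which moves the one-carbon unit from serine to folate, rose by 0.68. Aldh18a1, the first enzyme of proline synthesis, was at -2.25, -2.8, -2.53 and -2.96 in controls and 2.03, 2.09, 2.38 and 1.74 in KO BAT (log2 change 4.69, SE 0.19, adjusted p = 1.72e-06). The amino acid transporters Slc7a1 and Slc6a9, for cationic amino acids and glycine, rose by 3.8 and 3.62. The cystine transporter Slc7a11 was below background on all controls and at least 2.05-fold higher in KO BAT (adjusted p = 0.000124), whereas Slc7a5, for large neutral amino acids, was at -3.65, -3.22, -3.1 and -2.3 in controls and -3.38, -3.46, -3.41 and -3.82 in KO BAT, above background on 3 of the 4 KO arrays (log2 change -0.45, SE 0.26, adjusted p = 0.166). Other classical targets were lower or not called. Asns, asparagine synthetase, was at 5.62, 5.77, 5.73 and 5.31 in controls and 5.7, 5.63, 5.89 and 5.79 in KO BAT (log2 change 0.15, SE 0.12, adjusted p = 0.329). The groups overlapped. Sesn2 and Cth changed by -0.29 and -0.79 without passing the test, and Cebpb, Eif4ebp1 and Vldlr were lower, by 0.83, 1.11 and 1.01.

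**Figure D4:**
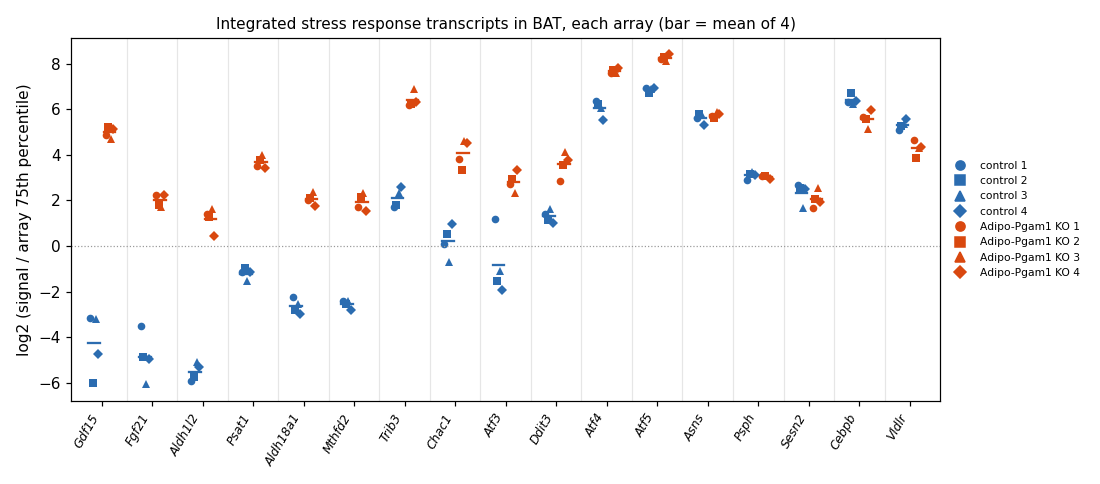
Levels of 17 genes of the integrated stress response (x axis) in each BAT array, as log2 of the signal over the array's 75th percentile (y axis), with controls in blue, Adipo-Pgam1 KO arrays in orange and bars at the means. Gdf15, Fgf21, Psat1, Trib3 and Atf4 were higher in all 4 KO arrays than in any control, whereas Asns, Psph and Sesn2 overlapped and Cebpb and Vldlr were lower.

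The list holds a pair of hormones, both higher in KO BAT. Gdf15, a hormone that acts on the hindbrain to lower appetite, was at -3.14, -6.02, -3.18 and -4.74 in controls and 4.85, 5.23, 4.71 and 5.14 in KO BAT, above background on 2 of the 4 controls. Every KO array was more than 7 log2 units above the highest control (log2 change 9.25, SE 0.59, adjusted p = 1.09e-05). Fgf21, a hormone of liver and fat, was at -3.51, -4.87, -6.07 and -4.97 in controls and 2.23, 1.81, 1.72 and 2.25 in KO BAT, above background on 1 of the 4 controls (log2 change 6.86, SE 0.46, adjusted p = 1.19e-05). The KO arrays differed from each other by less than 1 log2 unit for both hormones, and the controls below background make these log2 changes less exact than those of genes measured on all arrays.

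Atf4 binds, with a C/EBP partner, a composite element whose common form can be written TGATGNAA. To show what lies upstream of the members, the 250 bases before the RefSeq start of each gene (build GRCm38.p6) were searched for these letters on both strands. They were found in 8 of the 30 tested members that had a promoter entry (26.7%), against 2.59% of 11328 tested genes and 3.91% of 27025 entries in all. By result, 6 of 22 higher members, 1 of 3 lower members and 1 of 5 members without a call held them. Each line below gives 30 bases in the direction of the gene, with the matched letters in capitals.

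Atf3 (chr1:191183425-191183454, minus strand): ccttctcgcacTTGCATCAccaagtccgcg
Chac1 (chr2:119351038-119351067, plus strand): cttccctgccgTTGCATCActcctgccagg
Asns (chr6:7693214-7693243, minus strand): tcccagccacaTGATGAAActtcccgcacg
Nupr1 (chr7:126625562-126625591, minus strand): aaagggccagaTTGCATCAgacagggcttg
Pck2 (chr14:55540152-55540181, plus strand): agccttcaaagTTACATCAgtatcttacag
Slc7a11 (chr3:50443661-50443690, minus strand): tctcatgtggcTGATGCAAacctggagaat
Slc7a11 (chr3:50443642-50443671, minus strand): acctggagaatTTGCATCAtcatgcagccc
Vldlr (chr19:27216809-27216838, plus strand): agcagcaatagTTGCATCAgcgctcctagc
Fgf21 (chr7:45615611-45615640, minus strand): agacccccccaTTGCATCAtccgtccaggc

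Slc7a11 held 2 matches facing opposite ways, which is why it has 2 lines. Vldlr fell and Asns did not pass the test although both hold the letters, and Psat1 and Mthfd2 rose without a match in this window. A match is a string of letters and not a measured binding site, and elements farther from the start were not searched.

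Chaperones of different compartments moved differently. For the unfolded protein response of the endoplasmic reticulum (ER), 16 of 23 tested members were higher (69.6%) and 0 lower (0%), with a median change of 0.59, and 8 were higher with Actb and Rplp0 scaling. Hspa5, the ER chaperone BiP, was at 5.62, 5.9, 5.59 and 5.58 in controls and 6.97, 6.87, 6.82 and 6.65 in KO BAT (log2 change 1.16, SE 0.11, adjusted p = 5.64e-05). The transcription factors Xbp1 and Atf6 rose by 1.13 and 1.51, and the sensor kinase Ern1 was at -1.18, -1.1, -1.54 and -1.52 in controls and 1.15, 1.34, 1.28 and 1.21 in KO BAT (log2 change 2.58, SE 0.13, adjusted p = 3.94e-06). Derl3, which passes misfolded proteins out of the ER, was at -3.32, -4.52, -3.51 and -1.97 in controls and 0.55, 0.93, 1.61 and 1.7 in KO BAT, above background on 3 of the 4 controls (log2 change 4.53, SE 0.5, adjusted p = 9.75e-05). Dnajb9, a chaperone induced by Xbp1, was at 3.05, 3.25, 2.81 and 3.12 in controls and 3.37, 3.27, 2.79 and 3.27 in KO BAT (log2 change 0.12, SE 0.15, adjusted p = 0.53). Of the mitochondrial chaperones and proteases, 2 of 13 tested members were higher (15.4%) and 9 lower (69.2%), with a median change of -0.51. With spike-in scaling the median was 0.03, against 0.461 for all genes, and 3 were lower. With slide as a block 5 were lower, against 3678 of 14278 genes in all. Hspd1 and Hspe1, which form the Hsp60 chaperonin, fell by 0.54 and 0.47 (0.01 and 0.07 with spike-in scaling), and the protease Clpp was at 5.89, 5.91, 5.98 and 5.94 in controls and 4.82, 4.76, 4.8 and 5.14 in KO BAT (log2 change -1.05, SE 0.11, adjusted p = 6.47e-05). Hspa9, the import motor, changed by 0.12 (adjusted p = 0.306). Lonp1, a matrix protease that Atf4 can induce, rose by 0.6. In the cytosolic heat shock list, 1 of 14 tested members was higher (7.14%) and 1 lower (7.14%), with a median change of -0.16 that became 0.39 with spike-in scaling. Hspa1a was at 1.08, 3.33, 0.9 and -0.44 in controls and 0.25, 3.33, 0.07 and 1.51 in KO BAT (log2 change 0.07, SE 0.91, adjusted p = 0.949). Control 2 and KO array 2 were the highest of their groups for 14 and 10 of the 14 genes.

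The antioxidant genes did not move as a group. Of 23 tested, 6 were higher (26.1%) and 10 lower (43.5%), with a median of -0.12 that became 0.31 with quantile normalization and 0.42 with spike-in scaling. Nqo1, a quinone reductase, was at -3, -4.68, -3.27 and -3.38 in controls and -0.03, -0.74, -0.15 and -1.41 in KO BAT, above background on 3 of the 4 controls (log2 change 3, SE 0.42, adjusted p = 0.000326). Hmox1, which breaks down haem and is also high in macrophages, rose by 2.19, Srxn1, which repairs peroxiredoxins, by 1.36, and the transcription factor Nfe2l2 by 0.6. The glutathione peroxidases Gpx1 and Gpx3 fell by 1.49 and 1.33, and extracellular superoxide dismutase Sod3 by 1.2. Targets of the hypoxia-inducible factors also divided. Of 22 tested, 7 were higher (31.8%) and 10 lower (45.5%), with a median of -0.45 that was 0.1 with spike-in scaling. The oxygen sensor Egln3 was at 0.88, 0.49, 0.58 and 0.68 in controls and -2.5, -2.16, -2.29 and -2.23 in KO BAT (log2 change -2.95, SE 0.12, adjusted p = 1.86e-06). Bnip3, a mitophagy receptor, fell by 2.39, Ankrd37 by 2.42 and the pyruvate dehydrogenase kinase Pdk1 by 1.45. Ero1a, an oxidase that forms disulphide bonds in the ER, was at 2.56, 2.51, 2.65 and 2.49 in controls and 6.21, 5.75, 6.35 and 4.98 in KO BAT (log2 change 3.27, SE 0.27, adjusted p = 2.56e-05). It is listed among hypoxia genes, and its change was opposite to that of Egln3, Bnip3 and Pdk1.

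Cell cycle genes rose together. Of the proliferation list, 25 of 26 tested members were higher (96.2%) and 0 lower (0%), with a median change of 2.35 (2.16 with genes below background in all controls at their bound). Mki67 was at -1.13, -2.39, -0.07 and -2.03 in controls and 1.41, 2.17, 2 and 1.85 in KO BAT. Each KO array exceeded each control (log2 change 3.26, SE 0.46, adjusted p = 0.000347). Birc5, or survivin, was at -1.11, -1.75, -0.09 and -1.84 in controls and 1.71, 2.61, 2.34 and 2.36 in KO BAT, and Ccna2, the cyclin of S and G2 phase, rose by 3.24. Top2a, which untangles replicated DNA, rose by 3.56. Cdk1 was above background on no control, at least 6.13-fold higher in KO BAT (adjusted p = 0.00012). Within KO BAT, array 2 was highest for 19 and array 1 lowest for 21 of the 26 genes, against 15.3% and 30.5% of all genes tested. Of the p53 targets and senescence genes, 10 of 19 tested members were higher (52.6%) and 1 lower (5.26%), with a median change of 0.6, and 6 were higher with Actb and Rplp0 scaling. The cell cycle inhibitor Cdkn1a was at 2.97, 4.65, 3.88 and 4.8 in controls and 3.63, 3.38, 3.69 and 3.7 in KO BAT (log2 change -0.47, SE 0.36, adjusted p = 0.286). The groups overlapped. The death gene Bax was at 1.84, 1.83, 1.77 and 1.76 in controls and 2.97, 3.47, 3.55 and 3.37 in KO BAT (log2 change 1.54, SE 0.13, adjusted p = 2.98e-05). Pmaip1 and Eda2r, both below background on all controls, were at least 10.4-fold higher in KO BAT (adjusted p = 1.28e-05) and at least 3.94-fold higher in KO BAT (adjusted p = 1.1e-05). The inhibitors Cdkn2b and Cdkn2c went opposite ways, with changes of 1.78 and -2.36, Cdkn2c being induced during fat cell differentiation. Of the cell death list, 17 of 22 tested members were higher (77.3%) and 0 lower (0%), with a median change of 1.15, and 11 were higher with Actb and Rplp0 scaling. Casp4 and Casp1, the inflammatory caspases, rose by 3.65 and 2.6. Mlkl, which opens the membrane in necroptosis, was at -1.66, -1.68, -2.14 and -1.86 in controls and 0.47, 0.18, 0.06 and 0.33 in KO BAT (log2 change 2.09, SE 0.14, adjusted p = 1.23e-05). The proapoptotic Bid was at -1.25, -1.21, -1.85 and -2.11 in controls and 1.45, 1.32, 1.79 and 0.98 in KO BAT and the antiapoptotic Bcl2 was at -1.4, -1.94, -1.65 and -1.19 in controls and 1.5, 0.87, 1.54 and 0.73 in KO BAT, and both rose without overlap (log2 changes 2.99 and 2.71, SE 0.24 and 0.23, adjusted p = 2.44e-05 and 3.09e-05).

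Autophagy and lysosome genes went both ways. 11 of 31 tested members were higher (35.5%) and 10 lower (32.3%), with a median change of -0.03, and the median was 0.51 with spike-in scaling. The autophagosome genes Map1lc3a and Map1lc3b fell by 0.89 and 0.43 (Map1lc3b 0.12 with spike-in scaling). The cargo receptor Sqstm1 was at 6.84, 6.74, 6.9 and 6.36 in controls and 6.83, 7.05, 7.18 and 7.29 in KO BAT (log2 change 0.38, SE 0.15, adjusted p = 0.0565). The cathepsins Ctss and Ctsl, high in macrophages, rose by 3.28 and 1.52, and Npc1, the lysosomal cholesterol transporter, by 1.29. Ctsz, another cathepsin, fell by 1.3. In the interferon list, 19 of 26 tested members were higher (73.1%) and 0 lower (0%), with a median change of 1, with 12 higher under Actb and Rplp0 scaling. Oas1a, a sensor enzyme for double-stranded RNA, was at -0.4, 0.15, 0.31 and -0.16 in controls and 2.39, 3.07, 2.79 and 2.96 in KO BAT (log2 change 2.83, SE 0.2, adjusted p = 1.28e-05). Isg15 and Usp18, a ubiquitin-like protein and its protease, rose by 1.47 and 2.48, and Ifit1 by 1.51 with groups that overlapped. KO array 3 was the lowest KO array for 20 of these 26 genes. Of the immediate early genes, 6 of 18 tested members were higher (33.3%) and 1 lower (5.56%), with a median change of 0.56 that became -0.03 with Actb and Rplp0 scaling. The count higher was 10 without KO array 3 and 3 without KO array 2, against 3666 and 3546 of all 14288 genes. Fos was at 3.99, 1.68, 2.53 and 2.03 in controls and 3.54, 4.56, 2.03 and 4.4 in KO BAT, so that control 1 exceeded the other controls by more than 1 log2 unit and KO array 3 lay among the controls (log2 change 1.08, SE 0.65, adjusted p = 0.177). Fosl2 and Myc rose by 2.39 and 2.35 and did not overlap between genotypes.

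Collagen genes were higher. 15 of 19 tested members were higher (78.9%) and 0 lower (0%), with a median change of 1.39. Col1a1, a chain of the main fibrillar collagen, was at 3.3, 3.09, 4.01 and 2.53 in controls and 4.56, 5.54, 5.1 and 5.24 in KO BAT. Control 4 was the lowest control for 17 of the 19 genes, and all 4 KO arrays lay above all controls (log2 change 1.87, SE 0.32, adjusted p = 0.000933). Col1a2 and Col3a1 rose by 1.17 and 1.53, and Col5a3 was at 2.58, 2.54, 2.83 and 1.43 in controls and 5.01, 4.82, 4.04 and 4.59 in KO BAT (log2 change 2.27, SE 0.32, adjusted p = 0.00037). Of the basement membrane chains, Col4a5 and Col18a1 rose by 1.98 and 2.07, and Col15a1, found below capillaries and around fat cells, by 1.84. Among matrix proteases, their inhibitors and the crosslinking enzymes, 14 were higher (50%) and 6 lower (21.4%) of 28 tested, with a median of 1.04. Timp1, an inhibitor of matrix metalloproteinases, was at -0.68, -0.89, -0.37 and -1.28 in controls and 3.22, 3, 1.8 and 4.15 in KO BAT (log2 change 3.84, SE 0.44, adjusted p = 0.000116). Adam8, a membrane protease of leukocytes, was at -1.54, -1.2, -0.13 and -2.18 in controls and 3.36, 3.51, 3.16 and 3.62 in KO BAT (log2 change 4.68, SE 0.38, adjusted p = 2.32e-05). Mmp2 rose by 1.1, Mmp3 by 2.87 and Mmp11 by 2.31. Mmp9, a gelatinase, was at -2.61, -3.54, -0.61 and -3.83 in controls and -1.17, -1.74, -1.66 and -3.65 in KO BAT, above background on 3 of the 4 controls (log2 change 0.59, SE 0.76, adjusted p = 0.524).

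Of the matrix glycoproteins and proteoglycans, 22 of 39 tested members were higher (56.4%) and 2 lower (5.13%), with a median change of 0.58 that became -0.01 under Actb and Rplp0 scaling. Fn1, fibronectin, was at 1.85, 1.84, 2.56 and 1.08 in controls and 3.05, 3.86, 3.69 and 3.71 in KO BAT (log2 change 1.74, SE 0.3, adjusted p = 0.00111). Lum, a small proteoglycan that spaces collagen fibrils, was at 2.49, 2.39, 2.47 and 2.29 in controls and 4.04, 4.57, 4.53 and 4.6 in KO BAT (log2 change 2.02, SE 0.14, adjusted p = 1.27e-05). Tnc, or tenascin C, a protein of wounded and growing tissue, was at least 2.12-fold higher in KO BAT (adjusted p = 7.72e-05). Prelp, a related proteoglycan, was at 7.18, 6.77, 6.72 and 6.54 in controls and 4.81, 3.59, 3.46 and 3.96 in KO BAT, lower in every KO array (log2 change -2.85, SE 0.29, adjusted p = 6.16e-05). For the TGF-beta and activin genes, 11 of 26 tested members were higher (42.3%) and 6 lower (23.1%), with a median change of 0.53 that became -0.06 under Actb and Rplp0 scaling. The ligand Tgfb1 was at -0.6, -0.91, -0.56 and -1 in controls and 0.26, 0.38, 0.32 and 0.32 in KO BAT (log2 change 1.09, SE 0.12, adjusted p = 0.000101). Tgfb3 was at 0.41, 0.69, 1.03 and 0.29 in controls and 0.75, 0.77, 0.96 and 0.58 in KO BAT (log2 change 0.16, SE 0.17, adjusted p = 0.444). Inhba, a subunit of activin A, was at least 1.92-fold higher in KO BAT (adjusted p = 0.00994). The activin antagonist Fst rose by 2.49, the follistatin-like Fstl1 by 1.41, and Tgfbi, a matrix protein that TGF-beta induces, by 1.75. Acvr1c, the receptor Alk7 of mature adipocytes, fell from 3.67, 3.87, 3.57 and 3.66 in controls to 1.53, 1.46, 0.99 and 1.36 in KO BAT (log2 change -2.36, SE 0.14, adjusted p = 7.46e-06). Ltbp2, a matrix protein, fell by 2.93.

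**Figure D5:**
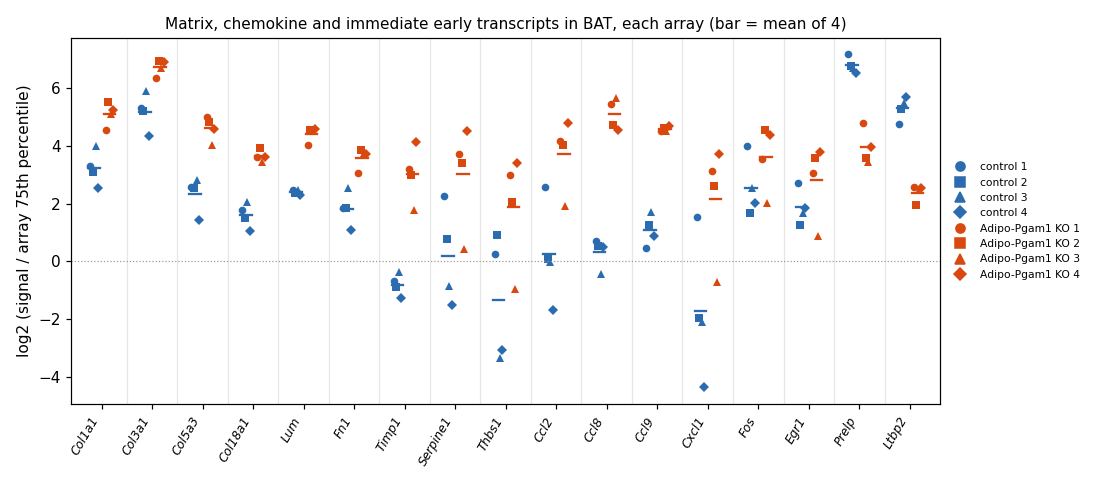
Levels of 17 genes of matrix, chemokines and the immediate early response (x axis) in each BAT array, as log2 of the signal over the array's 75th percentile (y axis), with controls in blue, Adipo-Pgam1 KO arrays in orange and bars at the means. Col1a1, Lum, Timp1, Ccl8 and Ccl9 were higher in every KO array than in any control and Prelp and Ltbp2 lower, whereas for Ccl2, Cxcl1 and Fos control 1 (circle) lay among the KO arrays.

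Secreted factors of brown fat changed in both directions. Of 27 tested, 9 were higher (33.3%) and 9 lower (33.3%), with a median of -0.3 that was 0.25 with spike-in scaling and 0.07 with quantile normalization. Besides Gdf15 and Fgf21, Bmp8b, which is induced in active brown fat, was at -3.78, -5.68, -2.96 and -3.7 in controls and -1.29, -0.52, -0.32 and -0.1 in KO BAT, above background on 3 of the 4 controls (log2 change 3.47, SE 0.54, adjusted p = 0.000581). Slit2, a guidance protein, was at least 3.64-fold higher in KO BAT (adjusted p = 1.82e-05), and Epdr1, a lysosomal and secreted protein, was at -0.31, -0.73, -0.34 and -0.35 in controls and 3.23, 2.94, 3.14 and 2.44 in KO BAT (log2 change 3.37, SE 0.19, adjusted p = 5.79e-06). Nrg4, a growth factor that brown fat releases to the liver, was at 5.1, 5.25, 5.21 and 5.33 in controls and 3.87, 3.36, 3.06 and 4.12 in KO BAT (log2 change -1.62, SE 0.22, adjusted p = 0.00027). Ptgds, which makes prostaglandin D2, fell by 3.05, and Vegfb and Nampt by 1.97 and 1.62. Of 24 adipokines, 8 were higher (33.3%) and 7 lower (29.2%), with a median of -0.08 that was 0.47 under spike-in scaling. Rbp4, the retinol carrier, was at 6.93, 6.44, 7.56 and 6.96 in controls and 3.37, 3.77, 2.83 and 3.66 in KO BAT (log2 change -3.56, SE 0.27, adjusted p = 1.84e-05). Agt, the precursor of angiotensin, was at -3.4, -1.88, -5.38 and -2.66 in controls and -1.12, -0.44, -1.02 and -1.08 in KO BAT, above background on 3 of the 4 controls (log2 change 2.42, SE 0.65, adjusted p = 0.0106). C1qtnf12, called adipolin, fell by 2.19, and Retn, resistin, was at 4.03, 5.24, 3.47 and 4.91 in controls and 4.19, 3.48, 2.65 and 2.82 in KO BAT, where the groups overlapped (log2 change -1.13, SE 0.45, adjusted p = 0.0578).

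Chemokine genes were nearly all higher. Of 20 tested, 18 were higher (90%) and 0 lower (0%), with a median of 3. Ccl8, an attractant of monocytes, was at 0.72, 0.53, -0.42 and 0.5 in controls and 5.46, 4.72, 5.68 and 4.55 in KO BAT (log2 change 4.77, SE 0.32, adjusted p = 1.23e-05), and Ccl9 was at 0.48, 1.27, 1.73 and 0.87 in controls and 4.52, 4.63, 4.54 and 4.68 in KO BAT (log2 change 3.51, SE 0.24, adjusted p = 1.25e-05). Ccl2, the main ligand of Ccr2, was at 2.57, 0.08, -0.02 and -1.67 in controls and 4.18, 4.04, 1.91 and 4.81 in KO BAT. Control 1 lay between the KO arrays, and without it the other controls were all below them (log2 change 3.5, SE 0.9, adjusted p = 0.00898). Cxcl10, induced by interferon, rose by 3.98, Ccl6 by 3.41 and the B cell attractant Cxcl13 by 2.86. KO array 3 was the lowest KO array and control 1 the highest control for 12 of the 20 genes each. Of the cytokines and their receptors, 13 of 21 tested members were higher (61.9%) and 1 lower (4.76%), with a median change of 1.78 (1.32 with bounds). Tnf was at -2.35, -2.41, -2.61 and -1.58 in controls and -2.74, -2.9, -3.35 and -2.51 in KO BAT (log2 change -0.64, SE 0.25, adjusted p = 0.0547), but its probes disagreed and their mean changed by 0.94. Il1b was at -2.09, -5.83, -2.66 and -3.75 in controls and -1.82, -0.7, -3.79 and -0.89 in KO BAT, above background on 3 of the 4 controls (log2 change 1.78, SE 0.91, adjusted p = 0.118). Neither passed, and Il6 was not well above background on all arrays of either genotype. Il33, an alarmin of stromal cells, was at -3.22, -3.26, -3.44 and -3.07 in controls and 0.02, -2.01, -1.96 and 0.98 in KO BAT (log2 change 2.51, SE 0.63, adjusted p = 0.00776), and its receptor Il1rl1 rose by 2.58. Il18 rose by 2.42, and Il10 and Osm, below background on all controls, were at least 2.17-fold higher in KO BAT (adjusted p = 2.71e-05) and at least 4.4-fold higher in KO BAT (adjusted p = 0.000435).

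Acute-phase genes went both ways. 11 of 18 tested members were higher (61.1%) and 4 lower (22.2%), with a median change of 1.86. Lcn2, or lipocalin 2, which binds bacterial siderophores, was at -0.85, -1.02, -0.92 and -1.72 in controls and 4.35, 4.54, 5.07 and 2.17 in KO BAT (log2 change 5.16, SE 0.56, adjusted p = 9.18e-05). Ptx3, a pentraxin of stromal and myeloid cells, was at -2.69, -5.34, -5.95 and -6.5 in controls and 0.74, 0.22, -0.64 and 2.63 in KO BAT, above background on 1 of the 4 controls (log2 change 5.86, SE 0.91, adjusted p = 0.000608). Itih4 and Serpina3n rose by 3.58 and 2.4. Saa1 was at -0.96, -1.17, -0.97 and -0.59 in controls and -0.76, -0.67, -0.77 and -0.01 in KO BAT (log2 change 0.37, SE 0.2, adjusted p = 0.129), whereas Saa3, the serum amyloid A gene of fat and macrophages, was at -0.22, -2.42, -4.14 and -4.85 in controls and -0.53, -0.48, 0.16 and -0.03 in KO BAT, above background on 2 of the 4 controls (log2 change 2.69, SE 0.88, adjusted p = 0.0258), a call lost without control 3 or 4 or KO array 3 or 4. The Saa genes are close copies, as are the Orm genes, so their probes may share signal. The haptoglobin gene Hp and the orosomucoids Orm1, Orm2 and Orm3, which adipocytes express, were all lower, by 1.12, 0.91, 0.84 and 1.42. Of 14 complement genes, 11 were higher (78.6%) and 2 lower (14.3%), and 7 were higher with Actb and Rplp0 scaling. The receptors C5ar1 and C3ar1 of myeloid cells rose by 3.01 and 2.54, and properdin, Cfp, by 2.73. C3, the central component, was at 8.42, 8.74, 8.28 and 8.01 in controls and 6.46, 6.68, 6.63 and 6.61 in KO BAT (log2 change -1.76, SE 0.15, adjusted p = 3.14e-05), and Cd59a, which blocks the terminal pore, was at 4.7, 4.68, 4.77 and 4.5 in controls and 2.79, 2.62, 2.63 and 2.85 in KO BAT (log2 change -1.94, SE 0.1, adjusted p = 5.24e-06). These 2 were the members of the complement list that fell. Cfd, the complement factor given with the adipocyte genes above, is not in this list and fell as well.

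Growth factors showed shares near the background. Of 33 tested, 12 were higher (36.4%) and 8 lower (24.2%), with a median of 0.32 (0.14 with bounds) that was -0.27 with Actb and Rplp0 scaling. Btc, betacellulin, a ligand of the EGF receptor, was at -0.72, -0.05, -0.18 and -0.01 in controls and -3.74, -3.8, -3.96 and -3.37 in KO BAT (log2 change -3.48, SE 0.19, adjusted p = 5.59e-06). Gdnf, a neurotrophic factor, was at least 3.89-fold higher in KO BAT (adjusted p = 4.29e-06). Fgf10, a factor of progenitor cells, was at -3.65, -2.47, -3.45 and -2.02 in controls and -1.62, -0.79, -1.34 and -1.41 in KO BAT (log2 change 1.61, SE 0.37, adjusted p = 0.00485). Igf1 was at 1.58, 2.34, 1.59 and 1.55 in controls and 2.17, 3.23, 2.82 and 2.25 in KO BAT, and the groups overlapped although the call was made (log2 change 0.85, SE 0.27, adjusted p = 0.024). The Igf1 call was lost without any one of controls 1, 3 and 4 and KO arrays 2 and 3.

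Over all genes, the largest changes among those well above background on all 8 arrays, with groups that did not overlap, were in genes of mixed function. Raet1e, a stress ligand for the NKG2D receptor of NK cells, was at -2.6, -2.77, -2.87 and -2.73 in controls and 2.89, 3.15, 3.57 and 2.8 in KO BAT (log2 change 5.85, SE 0.17, adjusted p = 4.67e-07). Cbr3, a carbonyl reductase, was at 1.87, 1.52, 2.12 and 1.75 in controls and 8.13, 7.52, 7.46 and 7.09 in KO BAT (log2 change 5.74, SE 0.22, adjusted p = 1.59e-06). Gadd45a, a stress-induced regulator of growth arrest, was at -1.33, -2.31, -2.26 and -2.45 in controls and 3.37, 2.81, 3.14 and 3.23 in KO BAT (log2 change 5.22, SE 0.25, adjusted p = 3.39e-06). These 3 rose most, followed by Lcn2, Lgals3, Psat1, Gpnmb, Plscr2 (4.8), Ccl8 and the lectin Clec4d (4.75). Cyp2b10 and Cyp2b9, closely related cytochromes P450 whose probes may share signal, fell most, at 2.35, 5.32, 4.04 and 5.87 in controls and 1.3, -2.17, 1.1 and -1.06 in KO BAT and at 0.52, 3.54, 2.2 and 4.51 in controls and -0.16, -3.57, -0.3 and -2.62 in KO BAT. The spread within each genotype was wide for both (log2 changes -4.6 and -4.36, SE 0.96 and 1.02, adjusted p = 0.00308 and 0.00544). Nat8l, which makes N-acetylaspartate and is high in brown fat, was at 4.05, 4.09, 3.81 and 3.51 in controls and 0.06, -0.45, -0.33 and -0.13 in KO BAT (log2 change -4.08, SE 0.16, adjusted p = 1.75e-06). Acot1, a cytosolic acyl-CoA thioesterase, Acsm3, a medium-chain acyl-CoA synthetase, and Hyal1, a hyaluronidase, fell by 3.91, 3.86 and 3.67. Vat1l, Sugct, Gm15471 and Cfd made up the rest of the 10, with falls of 3.93, 3.92, 4.01 and 3.68. Beyond these, 379 genes that were higher were below background on all controls, and 29 that were lower were below background on all KO arrays.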

How the data were processed

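Total RNA of interscapular BAT (RNeasy Lipid Tissue Mini Kit) was hybridised by the authors to 1-colour Agilent SurePrint G3 Mouse GE arrays and read with Agilent Feature Extraction 10.7.1.1. The deposited scanner files hold the processed signal as a linear intensity with background subtracted, and the deposited table holds the authors' normalized intensity, which equals the values used here up to rounding and served as an alternative. The authors compared genotypes in GeneSpring by fold change and t-test. Samples were grouped by title, and the series describes the 4 samples of a group as independent, with no further word on the animals.

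The log2 of the processed signal was taken after division by the 75th percentile of the non-control probes of that array. Flagged irregular spots were left out, and replicate spots were averaged on the log2 scale. Of 35886 probes with a RefSeq accession, 32994 (91.9%) were given a symbol through the RefSeq gene table. A gene was represented by its brightest probe, and 14288 genes whose probe clearly exceeded background (Feature Extraction's own test) on each of the 4 arrays of one genotype or both were tested with limma 3.58.1 in R 4.3.3 (lmFit and eBayes, Benjamini-Hochberg adjustment, threshold 0.05), by a script tested on simulated data. Where a gene was below background on all controls, a lower bound of the fold is given, from the mean KO level against the higher of the lowest above-background signal and the probe's own level on each control array. Arrays carry no read depth, and no array had saturated spots. The alternatives covered scaling, background correction, filters, probes, slide, replicate block, variance model, test and left-out arrays. No sample column was left unused (0).

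The comparison and the gene lists were chosen with earlier results of these data known. Named genes were the first 3 tested members of each list, up to 6 members with the largest change among those called without overlap, the mutases, and the 10 largest rises and falls over all genes. Some genes that this rule takes are not reported here. Named outside this rule, after their values were seen, were Apoe, Asns, Cebpb, Chac1, Cth, Ctsb, Ctsd, Cxcl1, Ddit3, Eif4ebp1, Hp, Itgam, Mertk, Nupr1, Orm1, Orm2, Orm3, Pck2, Phgdh, Psph, Pvalb, Sesn2, Shmt2, Slc6a9, Slc7a1, Slc7a11, Slc7a5, Tnnt3, Trib3 and Vldlr. Ckm, Myh4, Ms4a1, Cd79a, Il6, Msln, Upk3b and Hoxc9, which were not tested, were also named after their values were seen. Promoter sequences are from RefSeq, build GRCm38.p6.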

Additional observations from a re-analysis of the deposited data

Results flagged for a closer look

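Each named gene was checked in each genotype for an array whose level lay far from the other 3 arrays (Dixon's test). Of 506 groups of 4 arrays, 30 had such an array, and chance alone gives about 1 in 20. Control 1 stood apart for Casp4 (0.77, others -0.94 to -0.74), Gadd45a (-1.33, others -2.45 to -2.26) and Nupr1 (3.84, others 4.27 to 4.34). Control 2 stood apart for Epdr1 (-0.73, others -0.35 to -0.31), Hspa5 (5.9, others 5.58 to 5.62), Igf1 (2.34, others 1.55 to 1.59), Pi16 (3.09, others 2.79 to 2.81) and Shmt2 (0.91, others 1.17 to 1.18). Control 3 stood apart for Mrc1 (1.08, others 0.49 to 0.57). Control 4 stood apart for Actg2 (0.7, others -0.57 to -0.36), Col4a5 (-3.35, others -2.41 to -2.31), Lep (-0.26, others -0.94 to -0.83), Myc (-0.25, others -1.05 to -0.93) and Ppara (5.81, others 6.39 to 6.51). KO array 1 stood apart for Dpp4 (-2.45, others -1.97 to -1.88), Gpnmb (1.71, others 2.6 to 2.76), Lum (4.04, others 4.53 to 4.6), Tpsb2 (-0.2, others 0.78 to 0.98) and Zic1 (0.9, others 1.33 to 1.41). KO array 2 stood apart for Agt (-0.44, others -1.12 to -1.02) and Ltbp2 (1.94, others 2.47 to 2.57). KO array 3 stood apart for Dnajb9 (2.79, others 3.27 to 3.37) and Slc7a1 (3.23, others 2.44 to 2.56). KO array 4 stood apart for Cidec (7.6, others 7.14 to 7.19), Clpp (5.14, others 4.76 to 4.82), Csf1r (4.94, others 5.61 to 5.72), Gdnf (-1.53, others -2.22 to -2.11), Hmox1 (5.45, others 4.71 to 4.79), Mef2c (0.08, others 0.73 to 0.81) and Saa1 (-0.01, others -0.77 to -0.67).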

How the results depend on the processing

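The count of called genes stayed within 1.5 times of 8770 under every alternative that tested genes, and rose to 17126 of 29934 when all probes, named or not, were tested, a larger set by construction. It was 8580 with quantile normalization, 9100 with spike-in scaling, 10832 with Actb and Rplp0 scaling, 6682 with slide as a block, 8828 with limma's intensity trend, and 9153 and 8419 for the methods' t-test without and with Benjamini-Hochberg adjustment. Leaving out 1 array at a time gave 7874 to 8709 calls, and leaving out KO arrays 1 and 3 gave 7257. Correlations of deviations between arrays of the same replicate number were 0.01, 0.09, 0.192 and 0.018, against -0.223 to 0.136 between other arrays. Only control 3 with KO array 3 lay above that range. A fit with the replicate block made 8603 calls. Of 217 named genes that were called, 176 kept direction and call under every fitted alternative.

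The log2 changes that turned sign were these. With quantile normalization the sign turned for Apoe 0.2, Ctsd 0.26, Fabp4 0.04, Hba-a1 0.62, Ly6c2 0.03 and Psph 0.1. With median centring the sign turned for Cd3e 0.02. With spike-in scaling the sign turned for Apoe 0.33, Cd3e 0.54, Cdkn1a 0.07, Ctsd 0.34, Ebf2 0.06, Hba-a1 0.3, Hspd1 0.01, Hspe1 0.07, Lep 0.1, Ly6c2 0.31, Map1lc3b 0.12, Pecam1 0.36, Psph 0.48, Sesn2 0.25, Slc7a5 0.1 and Zic1 0.22. With Actb and Rplp0 scaling the sign turned for Asns -0.44, Cdh5 -0.41, Dnajb9 -0.47, Hspa1a -0.52, Hspa9 -0.47, Itgam -0.45, Mertk -0.23, Pi16 -0.1, Saa1 -0.22, Sox10 -0.41, Sqstm1 -0.21 and Tgfb3 -0.43. With normexp background correction the sign turned for Cd3e 0.04, Psph 0.01 and Sox10 -0.23. With the mean over probes the sign turned for Cd3e 0.01, Itgam -0.64 and Tnf 0.94. With slide as a block the sign turned for Hba-a1 0.06. Within the slide of both genotypes the sign turned for Hba-a1 0.06. Without KO arrays 1 and 3 the sign turned for Cd3e 0.08, Mmp9 -0.05, Pvalb -0.24 and Tnnt3 -0.05. Of the arrays left out singly, the sign turned without control 1 for Hba-a1 0.09, without control 3 for Hspa1a -0.03 and S100a9 -0.03, without control 4 for Cd3e 0.17 and Hspa1a -0.48, without KO array 2 for Cd3e 0.02 and Hspa1a -0.6 and without KO array 3 for Cd3e 0.1. Over these 8 settings the changes ranged from Cd3e -0.11 to 0.17, Hba-a1 -0.58 to 0.09, Hspa1a -0.6 to 0.78 and S100a9 -0.03 to 1.45. The cause was not tested.

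With slide as a block the call was lost for Acta1, Actg2, Agt, Cd3d, Cd3g, Cebpb, Cxcl13, Ebf2, Fgf10, Gpihbp1, Hspd1, Hspe1, Igf1, Il33, Kcnj8, Map1lc3b, Myl1, Nnat, Orm1, Orm2, Ryr1 and Shmt2. With normexp background correction the call was lost for Cd3d, Cd3g, Hspe1, Il10, Inhba, Ryr1 and Tnc. With quantile normalization the call was lost for Ctsb, Hspd1, Hspe1, Map1lc3b and Ucp1. With spike-in scaling the call was lost for Camp, Cebpb, Csf3r, Ctsb, Gpihbp1, Kcnj8, Orm1, Orm2 and Vldlr. With Actb and Rplp0 scaling the call was lost for Acta1, Acta2, Cd3d, Cd3g, Col1a2, Igf1, Lonp1, Mef2c, Nfe2l2, Shmt2 and Thy1. Without KO arrays 1 and 3 the call was lost for Acta1, Agt, Cxcl13, Hmox1, Hspe1, Igf1, Lep, Map1lc3b, Mef2c and Saa3. Calls lost without a single array, with the log2 change then found, were those without control 1 (Acta1 2.58, Igf1 0.79, Lep -0.48 and Map1lc3b -0.43), control 2 (Cxcl1 3.82, Hspe1 -0.41 and Mef2c 0.55), control 3 (Cxcl1 3.78, Igf1 0.79, Map1lc3b -0.4, Mef2c 0.64 and Saa3 2.28), control 4 (Acta1 2.79, Cxcl1 3.02, Igf1 0.78, Mef2c 0.5 and Saa3 2.04), KO array 1 (Acta1 2.21, Cxcl1 3.59, Lep -0.45, Map1lc3b -0.34 and Mef2c 0.55), KO array 2 (Cxcl1 3.77, Igf1 0.65, Lep -0.4, Map1lc3b -0.36 and Mef2c 0.58), KO array 3 (Acta1 3.05, Igf1 0.78, Lep -0.41, Mef2c 0.56 and Saa3 2.56) and KO array 4 (Cxcl1 3.39 and Saa3 2.62). Requiring all 8 arrays above background, which tests fewer genes, left 9 lipid-associated macrophage genes, 11 chemokines, 8 cytokines and 6 acute-phase genes higher. This filter also takes members out of these lists, so the counts do not compare with those given above. Of all genes then tested, 3153 of 12902 were higher. Without KO arrays 1 and 3, 5 adipokines were higher, against 3263 of 14282 genes. With slide as a block 2 muscle genes were higher, against 3004 of 14278 genes. Dim probes limit the folds of genes that controls did not measure, and 4 arrays a genotype limit the precision.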
